A study of Mus musculus with 16 samples.

Results

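NONMMUT029447.2 is a long non-coding transcript listed in the NONCODE catalogue. It lies on mouse chromosome 17 from 35480139 to 35480728 (GRCm38), 5.58 kb beyond the 3′ end of H2-Q10. By the deposited coordinates the window of 20 kb on either side held 4 of the 51024 listed transcripts, namely NONMMUT029447.2 and 3 neighbours. NONMMUT029447.2 and 1 neighbour passed the filter on low values, which asks for 4 or more libraries at 1 FPKM or above. FPKM counts reads per kilobase of transcript and per mega-read of the library. NONMMUT029447.2 was singled out for its difference between high-fat and ordinary feed in these same libraries, so its differences are given as a description. The neighbours were chosen by position alone.

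The data are 16 liver RNA libraries from C57BL/6J mice, a common inbred laboratory strain, with 4 libraries in each of 4 groups. The first group had ordinary feed and the second had high-fat feed. On the same high-fat feed, the third group was given resveratrol by gavage at a daily 100 mg/kg, and the fourth metformin by gavage at a daily 200 mg/kg. The labels put the age at postnatal day 21 without saying whether feeding started or tissue was taken then. No deletion, transgene or vehicle is named for any group, and the labels name no gavage for the groups without a drug. The titles of the 4 high-fat libraries share 1 prefix whose meaning is not given. Whatever it marks cannot be told apart from the diet in comparisons with this group. Replicates carry no numbers in the labels, and p-values measure only the spread between these libraries.

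H2-Q10 encodes a class Ib molecule of the major histocompatibility complex (MHC). Class I molecules are heavy chains that pair with beta-2 microglobulin and hold peptides, usually at the cell surface. H2-Q10 lacks a membrane anchor and is secreted, mainly by the liver, into the blood. Resveratrol is a plant polyphenol, and metformin is a drug that lowers blood glucose. The deposited tables list non-coding transcripts, so the H2-Q10 messenger RNA itself was not measured here. In bulk liver, fewer cells of a type and less RNA per cell cannot be told apart.

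The library totals implied by the FPKM values were 17.2 to 31.1 M reads (M, mega), of which 15.7% to 23.6% fell on listed transcripts. Both were inferred from the deposited values, not reported as sequencing yields. The fourth high-fat library stood apart. Its scale, taken as the median over features of the ratio to a geometric-mean library, was 0.691, and 0.885 to 1.145 in the other 15. Coding messenger RNAs are not listed, so the tissue could be checked only through non-coding features linked to marker genes (overlapping, or within 5 kb). Such features were tested for 4 of 7 hepatocyte markers, 1 of 6 macrophage markers and 1 of 4 stellate cell markers. The feature linked to H2-Q10 is NONMMUT029446.2, described below. None was tested for 5 T and NK cell, 4 B cell, 4 endothelial or 4 bile duct markers. The summed level of the hepatocyte-linked features was 47.3 to 76.3 FPKM on ordinary feed and 47.6 to 69.8 on high-fat feed. It was 68.7 to 105.9 with resveratrol and 60.1 to 75.9 with metformin. Most of that sum came from 1 feature at Serpina1a, with a mean of 62.7 FPKM over the 16 libraries.

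Of the hepatocyte features only that at Cps1 (NONMMUT001352.2), the first enzyme of the urea cycle, was called between high-fat and ordinary feed. It held 0.276, 4.27, 2.34 and 2.52 FPKM on ordinary feed and 0.140, 0.153, 0.208 and 0.145 on high-fat feed. It fell by 1.36 on the log2 scale (SE 0.30, limma adjusted p = 0.0126), a call lost without a filter (0.0556) and with only these groups fitted (0.0627), over a range of 0.000197 to 0.0627 in all settings. With resveratrol its mean was 2.27 ± 0.449 FPKM and with metformin 1.59 ± 0.431 (SD over 4 libraries), with limma adjusted p of 0.0714 and 0.278 against high fat. On ordinary feed its mean was 2.35 ± 1.63, and the low first library there held 96.2 FPKM of NONMMUT029447.2. The features at Apoa1, H2-Q10 and Serpina1a were not called between the diets. Their log2 differences were -0.28, -0.14 and 0.17 (limma adjusted p = 0.440, 0.717 and 0.605). The 1 macrophage feature, at Csf1r, held 0.111 to 3.31 FPKM on ordinary feed (mean 0.930 ± 1.59, SD). On high-fat feed it held 0.0647 to 0.125 (0.101 ± 0.0291). It was not called between these diets (limma adjusted p = 0.537). It held 0.124 to 3.89 with resveratrol (1.64 ± 1.85) and 0.121 to 3.20 with metformin (0.902 ± 1.53). In every group but high fat the SD exceeded the mean. The part of these marker differences, Cps1 included, in the results below was not tested.

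NONMMUT029447.2 was high in all 4 ordinary-feed livers and lower in every high-fat liver, with or without a drug. On ordinary feed its 4 libraries held 96.2, 110.6, 88.8 and 69.7 FPKM (mean 91.3 ± 17.02, SD, n = 4). On high-fat feed alone they held 18.4, 20.2, 30.2 and 9.74 FPKM (19.6 ± 8.40, n = 4). All 4 high-fat values thus lay far below the lowest ordinary-feed value. With resveratrol the libraries held 39.1, 17.6, 57.7 and 15.4 FPKM (32.4 ± 19.9, n = 4), and with metformin 21.7, 15.4, 63.2 and 28.8 FPKM (32.3 ± 21.3, n = 4). Both drug groups therefore ranged from the high-fat level to near the lowest ordinary-feed value, with 1 or 2 high libraries in each. The resveratrol and metformin means were 35.5% and 35.3% of the ordinary-feed mean, and that of high fat alone was 21.5%. In order of mean level the groups ran ordinary feed, resveratrol, metformin and high fat, and the last 3 overlapped one another.

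**Figure D1:**
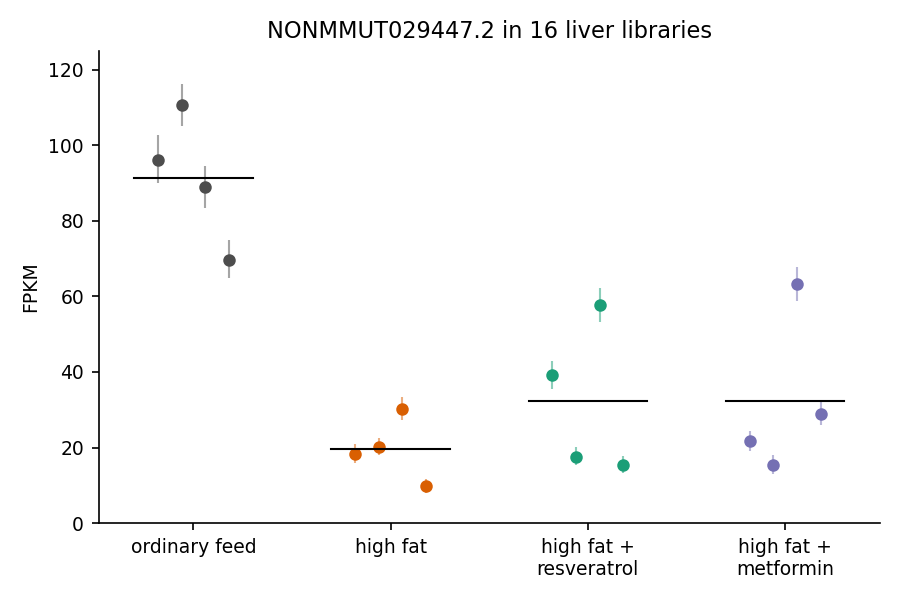
FPKM of NONMMUT029447.2 (vertical axis, from 0) in each of the 16 libraries, by group (horizontal axis). Points are libraries, with bars for the Poisson 95% interval of each, which covers counting error only. Horizontal lines are group means (n = 4). The ordinary-feed libraries sit between 69.7 and 110.6, all above the other 12, and the drug groups spread from 15.4 to 63.2.

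The values rest on well-counted reads. Each FPKM times the transcript's length of 543 bases gave whole reads, 116 to 1541 per library and 8360 over all 16. The lowest value, 9.74 FPKM in the fourth high-fat library, came from 116 reads, with a Poisson 95% interval of 8.04 to 11.7. For the highest drug-treated value, 63.2 FPKM from 791 reads, the interval was 58.8 to 67.7. Such intervals cover counting error only. The spread between drug-treated livers, from 15.4 to 63.2 FPKM, was thus much wider than counting error. The coefficient of variation was 18.6% on ordinary feed, 42.8% on high fat, 61.4% with resveratrol and 66.1% with metformin. On the log2(FPKM + 1) scale the SD within groups was 0.70, against a median of 0.24 over all 7413 tested features, and 92.8% of them varied less. Among the 415 features with a mean of at least 10 FPKM the median SD was 0.36, and 77.3% varied less. By title prefix, the pair that shares 1 in the resveratrol group held 39.1 and 17.6 FPKM, and the pair in the metformin group 15.4 and 63.2. The 4 high-fat libraries, which share 1 prefix, held 9.74 to 30.2 FPKM. The part of the prefix in the level was not tested.

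By mean FPKM, which is per length, NONMMUT029447.2 ranked 70th of the 7413 tested features, with 99.1% of them below it. On ordinary feed alone it ranked 36th, and on high-fat feed 190th. It had the highest mean of the 18 tested features within 1 Mb, itself included. It therefore counted among the abundant listed RNAs of these livers under either diet.

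On the log2(FPKM + 1) scale NONMMUT029447.2 differed by -2.24 between high-fat and ordinary feed (SE 0.46), or 4.65-fold between mean FPKM values. It ranked 11th from the lowest of the 7413 features. Since this contrast chose the transcript, no test is given. In this comparison 14.6% of features were called, that is, had a limma adjusted p under 0.05. The groups did not overlap, in the lower direction, for 17.3% of features. The median over all features was -0.16. After median-ratio scaling, which sets that median to 0.00, the difference was -1.97.

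Against ordinary feed, NONMMUT029447.2 differed by -1.65 with resveratrol and by -1.65 with metformin (SE 0.46 each), or 2.81-fold and 2.83-fold between means. Neither drug group overlapped ordinary feed. Groups did not overlap, in the lower direction, for 5.52% of features with resveratrol and 10.5% with metformin. Of all features 0.283% and 0.297% were called. After median-ratio scaling the highest metformin library, at 66.9, lay above the lowest ordinary-feed library, at 60.9, so the groups then overlapped. The highest resveratrol library, at 52.2, stayed below it. These comparisons share the ordinary-feed libraries with the contrast that chose the transcript, so they are also given without a test.

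The comparisons of each drug with high-fat feed alone ask what the drugs changed on that diet. NONMMUT029447.2 differed by 0.60 with resveratrol (SE 0.46) and by 0.59 with metformin (SE 0.46). The means were 1.65-fold and 1.64-fold those of high fat alone. In both cases the drug group overlapped the high-fat group, and the lowest value in each, 15.4 FPKM, lay below 3 of the 4 high-fat values. Of all features 0.0809% were called with resveratrol and 0.027% with metformin. The comparisons share the high-fat libraries with each other and with the contrast that chose the transcript, so no test is given. The median over all features was 0.13 with resveratrol and 0.07 with metformin. After median-ratio scaling the differences were 0.38 and 0.48, and with that scaling and without the fourth high-fat library 0.22 and 0.33. On the deposited values without that library they were 0.32 and 0.31. Without the third resveratrol library the first was 0.26, and without the third metformin library the second was 0.21.

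Resveratrol against metformin was the 1 comparison whose group means used no library of the choosing contrast, and it was tested. Its SE, interval and p still rest on a spread estimated from all 16 libraries, those of the choosing contrast included. The drugs are not structural analogs, and their doses differed. Levels of 32.4 ± 19.9 and 32.3 ± 21.3 FPKM (SD over 4 libraries each) were compared. The log2 difference was 0.00 (SE 0.46, 95% interval -0.98 to 0.99, limma adjusted p = 0.998). The interval leaves room for a difference of nearly 1 on the log2 scale either way, so the test does not show equal levels. No feature was called by limma in this comparison (0% of 7413), and 471 had an unadjusted p under 0.05.

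The 4 transcripts of the window lie on both sides of H2-Q10, which spans 35470089 to 35474563 on the plus strand. NONMMUT029443.2 (35465455 to 35466482) lies 3.61 kb upstream of the gene. NONMMUT029445.2 (35475983 to 35476952) and NONMMUT029446.2 (35476164 to 35477022) lie 1.42 and 1.60 kb downstream. These last overlap each other by 789 bases, 81.3% of the interval of the first and 91.9% of that of the second, so reads there could be split between them. NONMMUT029447.2 lies 3.12 kb beyond NONMMUT029446.2 and overlaps no other listed transcript. Its length of 543 bases is 47 less than its interval of 590, so that part of the interval is not in the transcript. None of the 4 overlaps a gene of the GENCODE M21 annotation. All are thus intergenic, outside any annotated exon, intron or UTR. The strand of these transcripts is not in the files, and whether any is an extension of the H2-Q10 messenger RNA was not tested. On the far side the nearest annotated gene in RefSeq is the long non-coding RNA Gm32362, 19.9 kb away. The nearest coding gene there is Pou5f1, a transcription factor of pluripotent cells, 25.3 kb away.

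**Figure D2:**
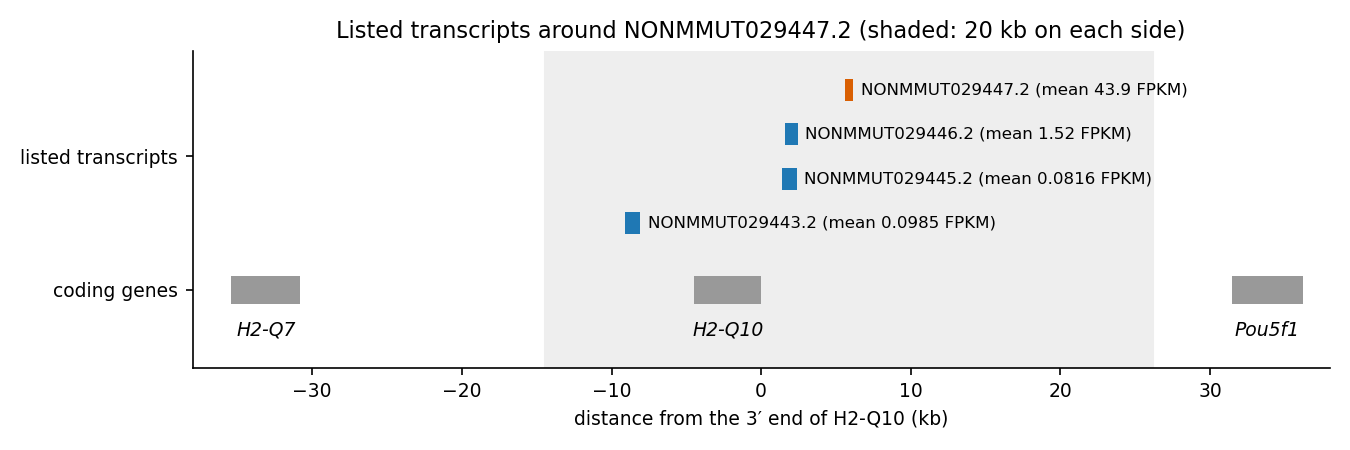
Map of the 20 kb window, with distance from the 3′ end of H2-Q10 in kb (horizontal axis), the 4 listed transcripts (upper rows) and the coding genes around them (lower row). All 4 transcripts lie outside H2-Q10, 1 upstream and 3 downstream.

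Nearly all reads of the window belonged to NONMMUT029447.2, with 8360 of 8820, or 94.8% (82.4% to 99.0% per library). NONMMUT029443.2 held 0 to 0.370 FPKM, with 18 reads over the 16 libraries and none in 4 of them. NONMMUT029445.2 held 0 to 0.222 FPKM, with 23 reads and none in 3 libraries. At this depth, at most 4 reads in any library, no difference between groups could be seen for either transcript. NONMMUT029446.2 held 0.444 to 2.50 FPKM, from 7 to 47 reads per library and 419 in all, and was the 1 neighbour that passed the filter.

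NONMMUT029446.2 did not show the ordinary-feed level seen in NONMMUT029447.2. It held 2.37, 0.548, 1.70 and 0.444 FPKM on ordinary feed (1.27 ± 0.931, SD, n = 4) and 0.789, 1.27, 1.01 and 0.698 on high-fat feed (0.941 ± 0.256). Ordinary-feed livers thus held both its lowest value and 1 of its highest. With resveratrol it held 2.17, 2.50, 1.10 and 1.39 FPKM (1.79 ± 0.654), and with metformin 2.33, 2.17, 2.16 and 1.61 (2.07 ± 0.317). The 4 metformin values lay above the 4 high-fat values, as was so in this direction for 2.56% of all features, while the other pairs of groups overlapped.

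None of the 6 comparisons called NONMMUT029446.2. Between high-fat and ordinary feed the log2 difference was -0.14 (SE 0.24, limma adjusted p = 0.717), against the median of -0.16 over all features. With metformin against high fat it was 0.66 (SE 0.24, unadjusted p = 0.0150, limma adjusted p = 0.507). With resveratrol against high fat it was 0.50 (SE 0.24, limma adjusted p = 0.317). Resveratrol against metformin gave -0.16 (limma adjusted p = 0.918), and against ordinary feed the values were 0.37 with resveratrol (limma adjusted p = 0.557) and 0.52 with metformin (unadjusted p = 0.0461, limma adjusted p = 0.239). Across the 16 libraries its Pearson r with NONMMUT029447.2 was -0.07, and -0.02 for deviations from group means.

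**Figure D3:**
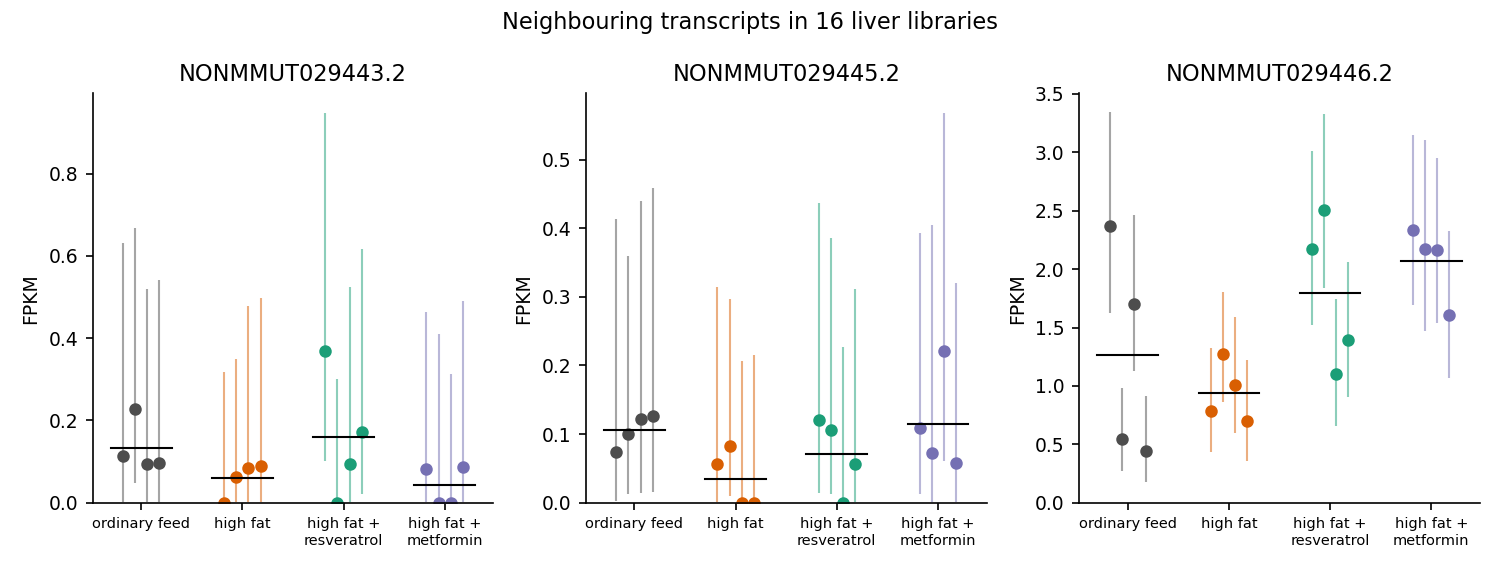
FPKM of the 3 neighbours (vertical axes, from 0) in each of the 16 libraries, by group. Points are libraries, with bars for the Poisson 95% interval of each, which covers counting error only. Horizontal lines are group means (n = 4). NONMMUT029446.2 is between 1.61 and 2.33 with metformin and between 0.698 and 1.27 on high fat, while the other neighbours never exceed 0.370.

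The summed FPKM of the 3 neighbours was 1.50 ± 0.889 on ordinary feed, 1.04 ± 0.287 on high-fat feed, 2.02 ± 0.730 with resveratrol and, with metformin, 2.23 ± 0.336 (SD over 4 libraries). For metformin against high fat a two-sided exact permutation test gave p = 0.0286, the smallest that 4 against 4 allows, and 0.171 after adjustment over 6 comparisons. Resveratrol against high fat gave p = 0.0571, and high fat against ordinary feed p = 0.371 by the same exact test. The remaining exact p-values were 0.257 to 0.686. No difference in the sum passed adjustment, which 1 comparison alone could not have passed even at the smallest p. The adjusted values thus do not show that the sums were equal.

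Non-coding features linked to genes of class I antigen presentation were read from a list of 44 genes, H2-Q10 included, of which 14 had a tested feature. Shared features reduced these to 10, and each names a position, not the level of a coding messenger RNA. The feature for H2-Q10 is NONMMUT029446.2, the neighbour described above. Between high-fat and ordinary feed 2 of the 10 fell, none rose and 8 were not called, beside 14.6% called of all features. Their median difference was -0.14, against -0.16 over all features. The 2 that fell lie in introns of Pdia3, a disulfide isomerase of the peptide-loading complex, and Canx, a chaperone of newly made heavy chains.

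The Pdia3 feature (NONMMUT039492.2, chromosome 2, 121415023 to 121419443) held 4.33, 7.02, 6.25 and 11.8 FPKM on ordinary feed and 1.77, 2.23, 2.32 and 2.45 on high-fat feed. It fell by 1.32 on the log2 scale (SE 0.41, limma adjusted p = 0.0426). The Canx feature (NONMMUT009604.2, chromosome 11, 50313367 to 50318445) held 2.90, 3.14, 3.77 and 5.07 FPKM on ordinary feed and 1.98, 2.23, 1.93 and 1.68 on high-fat feed. It fell by 0.66 (SE 0.21, limma adjusted p = 0.0469). The groups did not overlap for either feature, yet both calls were lost with median-ratio scaling (limma adjusted p = 0.104 and 0.167, and 0.0294 to 0.163 and 0.0305 to 0.188 over all settings tried), and without any 1 of the 4 high-fat libraries or of ordinary-feed libraries 2, 3 and 4. Both were also lost without a filter, with quantile normalization and without resveratrol library 1. Without ordinary-feed library 1 the Canx call was lost too. In all, the Canx call was lost in 18 settings and the Pdia3 call in 12.

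Of the features not called, 3 were named after their values were seen. The H2-K1 feature (NONMMUT144855.1), at a classical class I heavy chain gene, held 10.8, 0.304, 6.87 and 7.81 FPKM on ordinary feed and 6.71, 12.8, 12.7 and 14.8 on high-fat feed (1.11, SE 0.50, limma adjusted p = 0.135). One ordinary-feed library was far below the rest, and the groups overlapped. The B2m feature (NONMMUT039536.2), at the gene of beta-2 microglobulin, had -0.20 (SE 0.16, limma adjusted p = 0.399). NONMMUT029428.2, whose interval runs from 35241800 to 35430047 over H2-D1, H2-Q1, H2-Q2, H2-Q4 and H2-Q6, had 0.00 (SE 0.27, limma adjusted p = 0.997). These genes are near-identical copies in part, so reads at them are uncertain.

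In the other 5 comparisons limma called none of the 10 class I features. At an unadjusted p under 0.05 there were 3 with resveratrol and 2 with metformin against high fat, where 16.2% and 7.47% of all features reached it. There was 1 between the drugs, where 6.35% did. Against ordinary feed there were 2 with resveratrol and 4 with metformin, where 13.2% and 20.1% of all features did. Of 12 MHC class II genes, 1 had a tested feature, and of 27 interferon-response genes 5 had one. Limma called none of these 6 features in any comparison, and none had an unadjusted p under 0.05, which 32.2% of all features had between high-fat and ordinary feed. The class II feature was linked to Ciita, the master activator of class II genes, with 0.03 between high-fat and ordinary feed. It lies 2675 bases from Ciita and overlaps another coding gene, Dexi. The interferon features were linked to Bst2, Igtp, Iigp1, Irgm1 and Usp18, with a median of 0.18. The Irgm1 feature is intergenic, 4918 bases from that gene.

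Within 1 Mb of NONMMUT029447.2, a stretch that covers much of the MHC, 100 transcripts were listed and 17 other features were tested. NONMMUT029446.2, NONMMUT029428.2 and NONMMUT102067.1 (linked to H2-T10) are also in the class I list, so these sets are not separate. Between high-fat and ordinary feed 2 of the 17 rose, none fell and 15 were not called (-0.91 to 0.77). Of all features 2.83% were called higher. The median was 0.00, against -0.16 over all features. A call in the lower direction was made for 11.8% of all features, and 17 features are too few to tell a count of 0 from that share. NONMMUT029447.2 itself was given no test in this comparison.

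The 2 that rose lie next to each other, 665 and 663.8 kb away, at 8.86 and 7.66 kb from the nearest coding gene, Stk19. The tested feature of C4a (34809092 to 34811393) lies nearer to them than Stk19. It was not called, with 1.66 ± 0.736 FPKM on ordinary feed and 4.24 ± 4.01 on high-fat feed. Its log2 difference, 0.77 (SE 0.42, limma adjusted p = 0.220), had the same direction. NONMMUT029338.2 (34814527 to 34815131) held 0.231 to 0.776 FPKM on ordinary feed and 3.08, 2.63, 3.05 and 9.90 on high-fat feed (log2 difference 1.85, SE 0.34, limma adjusted p = 0.00573). NONMMUT029339.2 (34815364 to 34816337) had a mean of 0.685 ± 0.259 FPKM on ordinary feed and 6.76 ± 7.03 on high-fat feed (1.87, SE 0.42, limma adjusted p = 0.0134). In both the fourth high-fat library, which stood apart in scale, was by far the highest. Without it the differences were 1.48 (limma adjusted p = 0.00899) and 1.34 (limma adjusted p = 0.0165). In the other 5 comparisons limma called none of the 17. At an unadjusted p under 0.05 there were 2 with each drug against high fat and 0 between the drugs. Against ordinary feed there was 1 with resveratrol and 3 with metformin, beside the shares of all features given for the class I list.

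**Figure D4:**
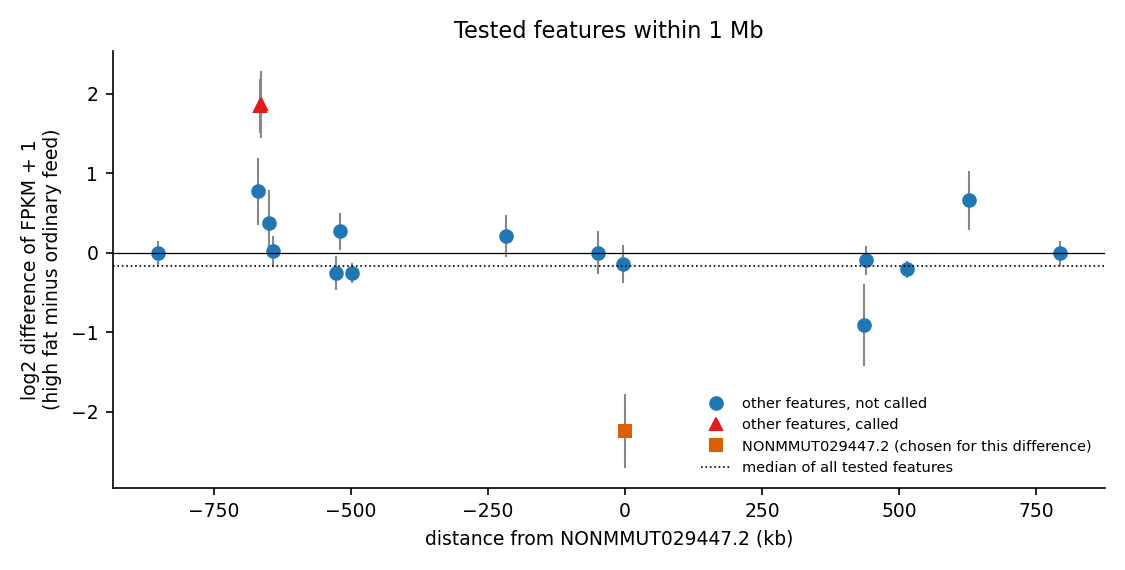
Log2 difference between high-fat and ordinary feed (vertical axis, log2(FPKM + 1) scale, bars SE) against distance from NONMMUT029447.2 in kb (horizontal axis) for the tested features within 1 Mb. The 2 called features lie close together on the left, at 665 and 663.8 kb, with 1.85 and 1.87, and NONMMUT029447.2, at -2.24, is below all others.

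The features whose levels followed NONMMUT029447.2 most closely lay on other chromosomes. Likeness was Pearson's r of log2(FPKM + 1) over the 16 libraries, which share their depth and scale, so r is a description. Over 7411 features outside the window r had a median of 0.21, a 5th percentile of -0.50 and a 95th of 0.68, and 3 features exceeded 0.9. The highest, 0.97, was that of NONMMUT056584.2 on chromosome 6 (41198693 to 41201843). It is intergenic, 0.707 kb from Trbv21, a variable segment of the T cell receptor beta locus, and 100.4 kb from the nearest coding gene, the trypsinogen gene Try4.

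NONMMUT056584.2 held 4.60, 5.10, 4.32 and 3.39 FPKM on ordinary feed and 1.79, 1.60, 1.97 and 1.40 on high-fat feed. It held 2.29, 1.83, 2.96 and 1.75 with resveratrol and 1.90, 1.33, 3.55 and 2.50 with metformin. Within the ordinary-feed, resveratrol and metformin groups its libraries stood in the same order as those of NONMMUT029447.2, and within high fat the first and second changed places. The r of deviations from group means was 0.91, and over the 8 drug-treated libraries r was 0.94. The feature was picked as the highest r over all 16 libraries, these 8 included, so both values are part of that choice and no separate support. Spearman's rho over the 16 was 0.96. With median-ratio scaling r was 0.94, and without the 2 libraries farthest from the median, ordinary feed 1 and 2, it was 0.96.

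**Figure D5:**
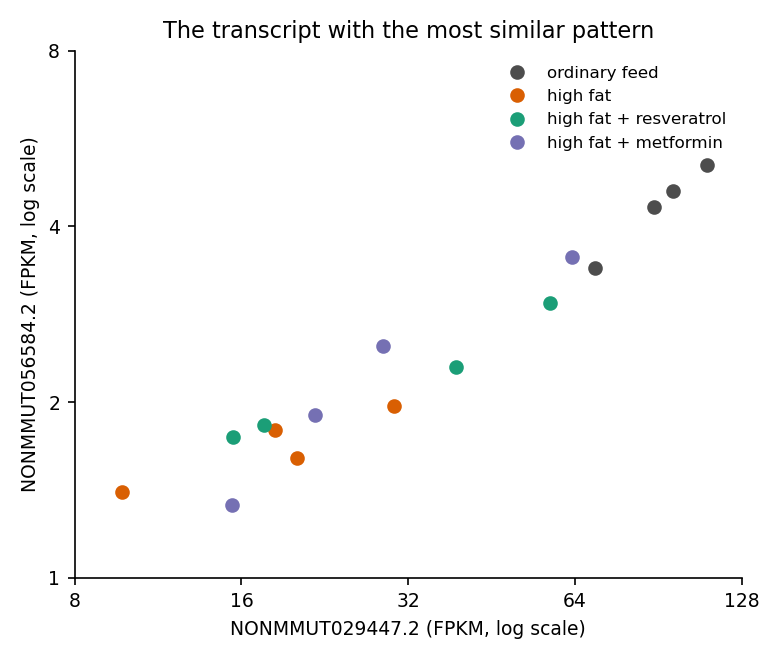
FPKM of NONMMUT056584.2 (vertical axis, log scale) against FPKM of NONMMUT029447.2 (horizontal axis, log scale) in the 16 libraries, by group. The points rise together from 9.74 and 1.40 FPKM in the fourth high-fat library to 110.6 and 5.10 in the second ordinary-feed library.

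The next 4 followed the deviations less closely. NONMMUT017881.2 on chromosome 13 (62083147 to 62296170), whose interval overlaps the zinc finger gene Zfp808, had an r of 0.92 (deviations 0.77). NONMMUT146681.1, overlapping Kin on chromosome 2 (10090144 to 10091072), had 0.90 (deviations 0.74). NONMMUT108498.1 (chromosome 2, 173110819 to 173138344), whose interval overlaps Ctcfl, a germ cell relative of the insulator protein CTCF, had 0.90 (deviations 0.79). NONMMUT035202.2 on chromosome 19 (57113744 to 57118695), at the actin-binding protein gene Ablim1, had 0.89 (deviations 0.73). Over the 8 drug-treated libraries these 4 had an r between 0.68 and 0.77, below that of NONMMUT056584.2. With median-ratio scaling their r over the 16 libraries was 0.79, 0.89, 0.87 and 0.86, in the order named.

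The 3 features with the lowest r were all below -0.8 over the 16 libraries. The feature at Dgat2 (NONMMUT062889.2), an enzyme of triglyceride synthesis, had an r of -0.89 (deviations -0.67). The long non-coding RNA 1810058I24Rik had -0.85 (deviations -0.47). The feature at Stard4 (NONMMUT031869.2), a cholesterol carrier, had -0.84 (deviations -0.59).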

How the data were processed

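FPKM values were computed by the authors and deposited as 1 table per library. The submitters' processing notes name Bowtie 0.12.2, Cufflinks 2.1.1 and GRCm38. Settings, annotation and strand handling were not given in the sources used here. RNA was extracted with Trizol, per the labels' protocols. FPKM times length gave whole reads within 0.05 of a read. Ensembl transcripts (6306 of 6326 matched GENCODE M21) were summed per gene, and 7413 of 49988 features passed the filter. Log2(FPKM + 1) values were fitted by limma (3.58.1, under R 4.3.3), trended over the mean, all 16 libraries at once (12 residual degrees of freedom), with Benjamini-Hochberg adjustment over all 7413. Fold changes on that scale understate those of low values. On simulated data with the high-fat and ordinary-feed design over 7413 features, 77% of changes of 1 and 95% of changes of 2 on the log2 scale were recovered. Features were linked to a gene they overlap or lie within 5 kb of, the 1 with the highest mean standing for it. The named features were NONMMUT029447.2, its window, called list members, and the 5 highest and 3 lowest by r. The members and gene lists were chosen with earlier results of these data known. Alternatives were the pseudocount, filter, scaling, summing, window width, groups fitted and each library left out.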

Additional observations from a re-analysis of the deposited data

Results flagged for a closer look

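Of 56 groups of 4 libraries checked over 14 named features, 4 held 1 library far above the other 3 by Dixon's criterion, which chance meets in about 1 group in 20. For NONMMUT029338.2 near Stk19 the fourth high-fat library held 9.90 FPKM, against 2.63 to 3.08 in the others. For NONMMUT029339.2 beside it the same library held 17.3 FPKM, against 3.07 to 3.47. For NONMMUT017881.2, which ran with NONMMUT029447.2, 1 resveratrol library held 1.45 FPKM, against 1.24 to 1.26. For NONMMUT062889.2 at Dgat2, 1 metformin library held 192 FPKM, against 167.3 to 170.6. No group of NONMMUT029447.2 itself held such a library.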

How the results depend on the processing

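The level differences of NONMMUT029447.2 kept their direction in all settings run for the comparisons with high fat and with ordinary feed. High fat against ordinary feed ranged from -2.47 to -1.96 with 1 library left out and from -2.30 to -1.81 in 8 other settings. Against high fat, resveratrol ranged from 0.26 to 0.87 and metformin from 0.21 to 0.87 with 1 library left out. Resveratrol against metformin, near 0, ranged from -0.33 to 0.39 (limma adjusted p = 0.911 to 0.999). No neighbour was called in any setting, windows of 10 and 50 kb included. The class I count between high-fat and ordinary feed, 2 as reported, was 1 with a pseudocount of 0.1 and 0 without a filter, with median-ratio scaling (also without the fourth high-fat library), with quantile normalization and with linked features summed. With 1 library left out it was 0 to 2. The count within 1 Mb was 1 in place of 2 without a filter. For metformin against ordinary feed it was 0, and 0 to 1 with 1 library left out, the 1 arising without the fourth high-fat library. The count of all features called between high-fat and ordinary feed was 1085 as reported, 813 with median-ratio scaling, 721 with quantile normalization, 449 with 2 groups fitted and 274 without a filter. The cause was not tested. Of the 5 most similar features, 4 stayed so with median-ratio scaling and 2 by Spearman's rho, and of the 3 most opposite 1 stayed so in each. Depth limits NONMMUT029443.2 and NONMMUT029445.2, with at most 4 reads per library. No paired analysis was possible because the labels give no replicate numbers.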
